A study of Mus musculus with 15 samples.

Results

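Valve developmental transcription factors were followed as 10 genes, chosen with earlier results of these data known: Gata4, Gata5, Gata6, Tbx20, Twist1, Nfatc1, Tcf21, Msx1, Mef2c and Snai2. They were found by symbol in the deposited expression table, and all 10 were among its 18073 genes. RNA was taken from microdissected aortic valve leaflets, all from the C57BL/6 strain at 2 months of age, and the design crosses loss of 1 copy of Notch1 with telomere length. The group N1het/TercG2 was labelled as heterozygous for Notch1 and came from generation 2 of Terc-/- mice, which have short telomeres (4 mice). The group N1WT/TercG2 had the same short-telomere background and was labelled as wild type for Notch1 (3 mice). The group N1het/TercWT was heterozygous for Notch1 with intact Terc and long telomeres (4 mice), and N1WT/TercWT was wild type for both genes (4 mice). Terc encodes the RNA template of telomerase. The labels do not say how the Notch1 allele was made, and each library came from 1 mouse and 3 leaflets.

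The heart valves form from endocardial cushions, where endothelial cells lose their junctions, become mesenchymal and invade the matrix. GATA factors and Tbx20 act in the endocardium, the cushion mesenchyme and the heart muscle. Nfatc1 marks the endocardium of the forming leaflets and is switched on by calcineurin. Snai2, Twist1 and Msx1 act in the epithelial-to-mesenchymal transition and in cushion mesenchyme, and Snai2 is a known target of Notch signalling in cushion endocardium. Tcf21 is needed for cardiac fibroblasts that come from the epicardium, and Mef2c for heart muscle and vessels. Loss of Gata5, and of 1 copy of Gata6, has been linked to bicuspid aortic valve in mice.

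Each group has 1 pooled FPKM per gene (fragments scaled by transcript length and by the library's mapped fragments), so the spread between mice is unknown, read depth is unknown and no p-value can be given. A difference below is log2(FPKM + 1) of the first group minus that of the other, which understates the change of low genes. A gene is called past 2-fold where this difference is at least 1 in size, so plain FPKM can lie more than 2-fold apart without passing. The verbs rose and fell are kept for genes that the authors' deposited table calls different. In pooled tissue, fewer cells of a type and less RNA per cell cannot be told apart. Terc was listed at 0 FPKM in both TercG2 groups. Notch1 stood at 23.3 FPKM in N1het/TercG2 and 16.6 FPKM in N1WT/TercG2, and at 25.1 FPKM in N1het/TercWT and 39.1 FPKM in N1WT/TercWT, so with short telomeres its level goes against the genotype labels. The N1het/TercG2 and N1WT/TercG2 groups are therefore named only as labelled. Mitochondrially encoded genes made up 33.0% and 30.5% of the summed FPKM in N1het/TercG2 and N1WT/TercG2, against 9.52% and 13.9% in N1het/TercWT and N1WT/TercWT.

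All 10 factors were detected in every group, from 1.01 FPKM (Tcf21 in N1WT/TercG2) to 277 FPKM (Tbx20 in N1WT/TercG2). Tbx20, a T-box factor of endocardium and myocardium, was the most abundant member in each group, with 222 FPKM in N1het/TercG2, 277 FPKM in N1WT/TercG2, 154 FPKM in N1het/TercWT and 195 FPKM in N1WT/TercWT. It stood above 98.3% to 99.0% of all genes and alone made up 56.6%, 62.3%, 46.6% and 42.9% of the members' summed FPKM in the same order of groups. Gata4 came second in each group, at 36.1, 57.3, 41.1 and 62.9 FPKM in that order. Below it the order of levels changed between groups. Next after Gata4 came Mef2c in N1het/TercG2 at 32.4 FPKM, Gata6 in N1WT/TercG2 at 28.1 FPKM, Nfatc1 in N1het/TercWT at 35.9 FPKM and Gata6 in N1WT/TercWT at 44.7 FPKM. Gata5 was the lowest member in N1het/TercG2, N1het/TercWT and N1WT/TercWT (5.22, 5.09 and 7.76 FPKM), and Tcf21 the lowest in N1WT/TercG2. With 1 value per group, it is unknown which neighbours in this order differ beyond the spread between mice.

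**Figure D1:**
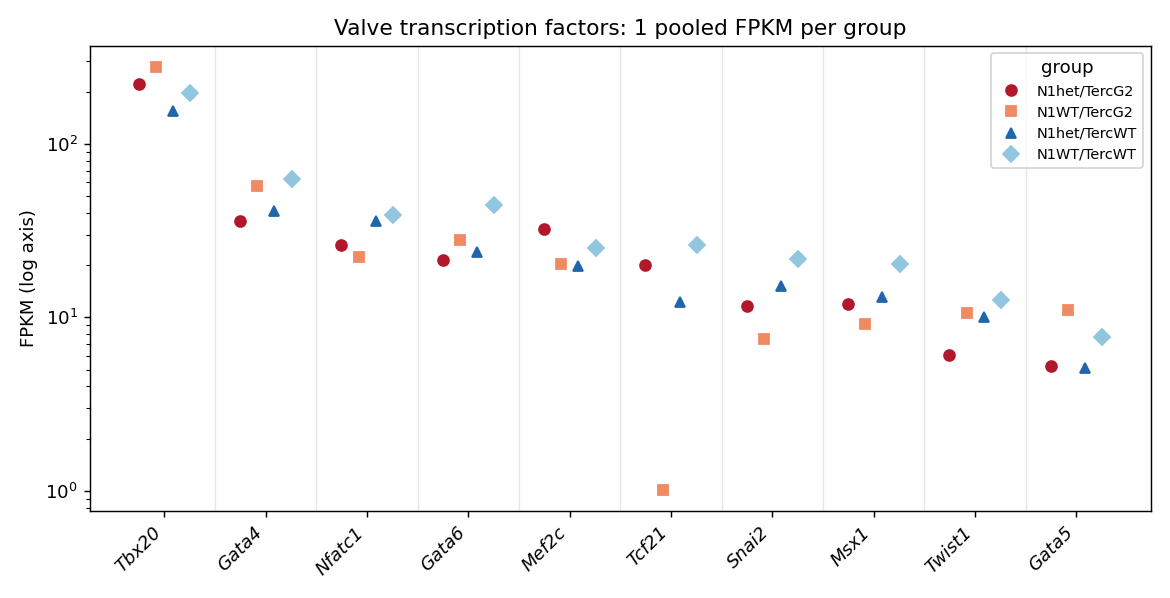
FPKM of the 10 valve transcription factors on a log axis, with 1 point per group and no error bars because each group has 1 pooled value. Tbx20 lies between 154 and 277 FPKM, and Tcf21 spans 1.01 to 26.2 FPKM while every other member stays within a 2.91-fold range.

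The wild type group with long telomeres held the highest level of 7 of the 10 factors: Gata4, Gata6, Twist1, Nfatc1, Tcf21, Msx1 and Snai2. Of all genes, 28.5% were highest in that group. Gata5 and Tbx20 were highest in N1WT/TercG2 and Mef2c in N1het/TercG2. N1WT/TercG2 held the lowest level of 4 members (Nfatc1, Tcf21, Msx1 and Snai2), where 39.9% of all genes were lowest. Gata4, Gata6 and Twist1 were lowest in N1het/TercG2, and Gata5, Tbx20 and Mef2c in N1het/TercWT. Apart from Tcf21, the members' ranges over the 4 groups ran from 0.69 (Mef2c) to 1.42 (Snai2) on the log2 scale, around the median range of 1.02 of the 10025 genes with a mean of at least 5 FPKM, and 6 of the 10 lay under that median.

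Tcf21 (ENSMUSG00000045680), a basic helix-loop-helix factor of epicardium-derived fibroblasts, had by far the widest range of the 10. It stood at 20.1 FPKM in N1het/TercG2, 1.01 FPKM in N1WT/TercG2, 12.3 FPKM in N1het/TercWT and 26.2 FPKM in N1WT/TercWT. N1WT/TercG2, a group of 3 mice, stood far below the other groups. It also had the most genes at 0 FPKM, with 1181, 2010, 250 and 705 in the same order of groups. The range of 3.76 on the log2 scale was larger than that of 96% of genes with a mean of at least 5 FPKM. In the authors' deposited table Tcf21 fell in N1WT/TercG2 against N1WT/TercWT (difference -3.76) and rose in N1het/TercG2 against N1WT/TercG2 (difference 3.39). These calls share the N1WT/TercG2 group and its 1 low value, so they are not independent. Tcf21 was not called for N1het/TercWT against N1WT/TercWT, where it was 2.14-fold lower.

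Tcf21 is expressed by fibroblasts and epicardium, so the markers of those cells are given beside it. The 12 fibroblast and interstitial markers summed to 5878 FPKM in N1het/TercG2, 8027 FPKM in N1WT/TercG2, 5044 FPKM in N1het/TercWT and 5696 FPKM in N1WT/TercWT. Dcn, a matrix proteoglycan, made up most of the sum in N1WT/TercG2, with 4698 FPKM there. The mean of log2(FPKM + 1) over the 12 markers was 6.95, 7.29, 7.09 and 7.41 in the same order of groups, and 8 of 12 were lower in N1WT/TercG2 than in N1WT/TercWT (4 of 12 under median scaling). The fibrillar collagen genes were lowest in N1WT/TercG2, as Tcf21 was. Col1a1 stood at 79.5, 61.3, 105 and 199 FPKM and Col3a1 at 51.5, 41.3, 46.4 and 71.3 FPKM in the same order, while Pdgfra, a receptor of fibroblasts, was highest in N1WT/TercG2 at 47.0 FPKM. The 10 epicardial and mesothelial markers summed to 19.7, 43.4, 31.8 and 74.7 FPKM, none of them was at 0, and 8 of 10 were lower in N1WT/TercG2 than in N1WT/TercWT. Among them only Tbx18, an epicardial T-box factor, was lowest in N1WT/TercG2, at 1.97 FPKM. The other listed markers were lowest in N1het/TercG2 or in N1het/TercWT. The part of these cells in the Tcf21 values was not tested. The genes nearest to Tcf21 in pattern over the 4 groups, among 8831 genes searched by distance of centred log2 values, were SNORD22 (distance 0.44), SNORD45 (0.48) and Mcee (0.63). Mcee, an enzyme of propionate breakdown, stood at 46.2, 4.61, 28.7 and 40.4 FPKM in the order above. With 4 points per gene such likeness is a description of these pooled values.

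Msx1 was also past 2-fold lower in N1WT/TercG2 than in N1WT/TercWT, except under median scaling, and these are the windows upstream of the starts of both genes, 5′ to 3′ on the minus strand, from RefSeq on build GRCm38.p6 (Tcf21 at chr10:22820175-22820393, Msx1 at chr5:37824617-37824835). Capitals mark CANNTG, the E-box bound by basic helix-loop-helix and Snail factors, and GGAAA, the core bound by NFAT factors, searched on both strands with overlaps counted.
Tcf21: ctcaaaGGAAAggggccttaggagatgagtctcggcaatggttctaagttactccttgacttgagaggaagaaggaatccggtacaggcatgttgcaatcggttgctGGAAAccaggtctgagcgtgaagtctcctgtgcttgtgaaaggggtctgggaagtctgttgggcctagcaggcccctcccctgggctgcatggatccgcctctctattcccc
Msx1: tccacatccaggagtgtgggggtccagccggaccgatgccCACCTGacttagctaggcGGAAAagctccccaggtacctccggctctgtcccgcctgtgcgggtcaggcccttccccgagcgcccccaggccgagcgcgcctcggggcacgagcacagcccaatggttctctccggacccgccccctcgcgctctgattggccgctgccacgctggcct
The Tcf21 window held 2 matches to GGAAA and 0 to CANNTG, and the Msx1 window held 1 of each. Neither held GATAA, the core of the GATA site. Of 32851 RefSeq windows cut to the same length, 62.0% held CANNTG, 51.2% GGAAA and 20.5% GATAA. A match describes the letters and does not show binding.

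With long telomeres, all 10 factors stood lower in N1het/TercWT than in N1WT/TercWT. Of all genes, 43.6% were lower. The members' median difference was -0.51, against 0.09 over all genes. The authors' deposited table called 0 of the 10, where it called 0.415% of all genes. Tcf21 was the 1 member past 2-fold (difference -1.04), where 18.4% of all genes were past 2-fold in either direction and 7.53% were past it and lower.

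After Tcf21, the difference of Gata6 was the next in size. Gata6 stood at 23.9 FPKM in N1het/TercWT and 44.7 FPKM in N1WT/TercWT, a difference of -0.87. Gata4 was at 41.1 FPKM in N1het/TercWT and 62.9 FPKM in N1WT/TercWT (-0.60), and Gata5 at 5.09 and 7.76 FPKM (-0.52). All 3 were thus lower by 0.52 to 0.87 on the log2 scale, and none was called in the authors' deposited table. Among the factors of the mesenchymal transition, Msx1 had 13.1 FPKM in N1het/TercWT and 20.2 FPKM in N1WT/TercWT (-0.59). Snai2, the Notch target of cushion endocardium, had 15.3 FPKM in N1het/TercWT and 21.8 FPKM in N1WT/TercWT (-0.49), and Twist1 had 10.04 and 12.6 FPKM (-0.30). Tbx20 and Mef2c differed by -0.34 each. Nfatc1, the endocardial factor, was nearest to equal, with 35.9 FPKM in N1het/TercWT and 38.8 FPKM in N1WT/TercWT (-0.11).

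Cell type markers differed between the same groups. Fibroblast and interstitial markers were lower in 10 of 12 genes, with sums of 5044 FPKM in N1het/TercWT and 5696 FPKM in N1WT/TercWT. Endothelial markers were lower in 9 of 11, with sums of 381 and 497 FPKM. Cardiomyocyte markers were higher in 10 of 10, or in 9 of 10 under either rescaling, where Tnnt2 turned lower, with sums of 5522 FPKM in N1het/TercWT and 3723 FPKM in N1WT/TercWT. Smooth muscle markers were lower in 8 of 8 (median difference -2.80) and atrial markers in 5 of 5 (-3.96). Platelet markers were lower in 6 of 6 (-4.86). Of these, 4 smooth muscle, 2 atrial and 6 platelet markers fell in the authors' deposited table, where 0.415% of all genes were called. T cell and thymocyte markers were higher in 9 of 9, and 6 of them rose in that table. They summed to 1076 FPKM in N1het/TercWT and 115 FPKM in N1WT/TercWT. The part of these cells in the members' lower values was not tested.

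With short telomeres the 10 factors split evenly, where 42.6% of all genes were lower and 53.5% higher. In N1het/TercG2 against N1WT/TercG2, the 3 GATA factors, Tbx20 and Twist1 were lower and Nfatc1, Tcf21, Msx1, Mef2c and Snai2 were higher. The median difference was -0.05, and 0.06 over all genes. Of the 10 members, 1 was called in the authors' deposited table, Tcf21, where 0.476% of all genes were called. It was also the 1 member past 2-fold, as were 23.2% of all genes in either direction and 12.5% that were higher.

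Gata5 had the lowest difference, just inside 2-fold on the log2(FPKM + 1) scale although 2.10-fold lower in plain FPKM, with 5.22 FPKM in N1het/TercG2 and 11.0 FPKM in N1WT/TercG2 (difference -0.94). Twist1 stood at 6.03 FPKM in N1het/TercG2 and 10.7 FPKM in N1WT/TercG2 (-0.73), and Gata4 at 36.1 and 57.3 FPKM (-0.65). Gata6 and Tbx20 differed by -0.38 and -0.32. On the other side, Mef2c stood at 32.4 FPKM in N1het/TercG2 and 20.4 FPKM in N1WT/TercG2 (0.64), and Snai2 at 11.6 and 7.51 FPKM (0.57). Msx1 and Nfatc1 differed by 0.34 and 0.21. Fibroblast and interstitial markers were lower in 9 of 12 genes here and epicardial and mesothelial markers in 9 of 10, while cardiomyocyte markers were higher in 10 of 10 and macrophage markers in 7 of 8. Platelet and neutrophil markers were lower in 6 of 6 genes each, T cell and thymocyte markers in 9 of 9 and erythroid markers in 5 of 5. Of these, 5 platelet, 3 neutrophil, 3 T cell and 2 erythroid markers fell in the authors' deposited table, where 0.476% of all genes were called. Their part in the members' values was not tested.

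The comparisons of groups labelled N1het and N1WT with long and with short telomeres use separate mice, so they can be set side by side. Gata4, Gata5, Gata6, Tbx20 and Twist1 were lower in the group labelled N1het in both settings, a pattern that 20.0% of all genes shared. Nfatc1, Tcf21, Msx1, Mef2c and Snai2 were lower with long and higher with short telomeres, as were 21.9% of all genes. Gata4 and Tbx20 had nearly the same difference in each setting, -0.65 with short and -0.60 with long telomeres for Gata4, and -0.32 with short and -0.34 with long telomeres for Tbx20. For Snai2, Mef2c and Msx1 the difference with short telomeres was larger by 1.06, 0.98 and 0.93 than with long, and for Tcf21 by 4.42. Over all genes this quantity had a median of 0.00 and quartiles of -0.68 and 0.67, and 201 genes were at least as far from 0 as Tcf21. Without values per mouse these differences between settings were not tested.

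**Figure D2:**
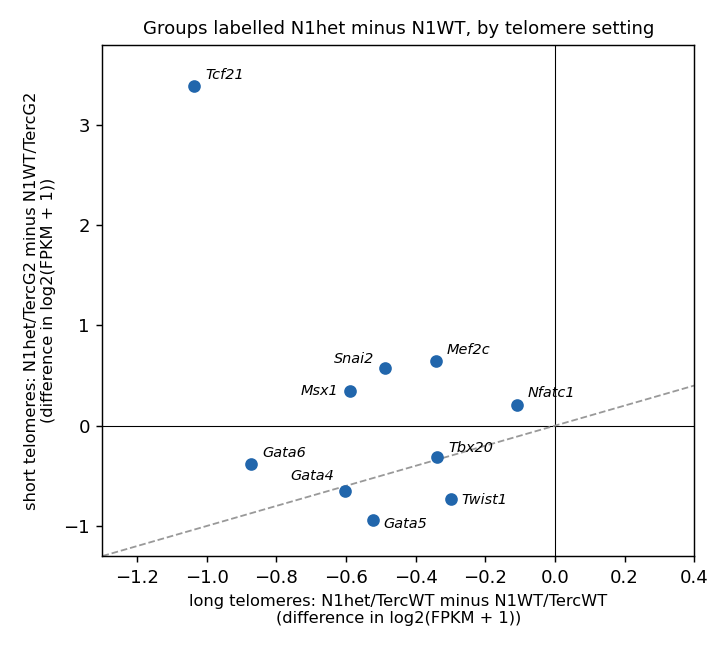
Difference in log2(FPKM + 1) between the groups labelled N1het and N1WT with short telomeres (vertical axis) and with long telomeres (horizontal axis), 1 point per factor, with a dashed line of equal differences. All 10 points lie left of 0, 5 of them above and 5 below the horizontal line, and Tcf21 stands apart at -1.04 and 3.39.

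Between the groups labelled N1WT, 8 of the 10 factors were lower in N1WT/TercG2 than in N1WT/TercWT, where 61.1% of all genes were lower. The members' median difference was -0.47 and that of all genes -0.23, so that 6 of the 10 lay below the typical gene. The authors' deposited table called Tcf21, 1 of 10, where it called 0.686% of all genes. Past 2-fold were 3 members, all lower, where 29.8% of all genes were past 2-fold in either direction and 20.9% were past it and lower.

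Beside Tcf21, Snai2 and Msx1 were past 2-fold, though Msx1 was not under median scaling (-0.81). Snai2 stood at 7.51 FPKM in N1WT/TercG2 and 21.8 FPKM in N1WT/TercWT (difference -1.42). Msx1, a homeobox factor of cushion mesenchyme, stood at 9.18 FPKM in N1WT/TercG2 and 20.2 FPKM in N1WT/TercWT (-1.06). Nfatc1 was at 22.4 FPKM in N1WT/TercG2 and 38.8 FPKM in N1WT/TercWT (-0.77), and Gata6 at 28.1 and 44.7 FPKM (-0.65). Gata4 with -0.13, Twist1 with -0.22 and Mef2c with -0.29 were close to the median of all genes, and Gata4 and Twist1 turned to 0.13 and 0.03 when the groups were scaled to equal medians. Tbx20 and Gata5 were higher, with 277 FPKM in N1WT/TercG2 and 195 FPKM in N1WT/TercWT for Tbx20 (0.50), and 11.0 and 7.76 FPKM for Gata5 (0.45). Within the GATA group the balance therefore differed, and Gata6 was 2.56-fold above Gata5 in N1WT/TercG2 and 5.76-fold above it in N1WT/TercWT. Smooth muscle markers were lower in 8 of 8 genes in N1WT/TercG2 and atrial markers in 5 of 5, with atrial sums of 99.4 FPKM in N1WT/TercG2 and 653 FPKM in N1WT/TercWT. Neutrophil markers were higher in 6 of 6 and summed to 1736 FPKM in N1WT/TercG2 and 11.6 FPKM in N1WT/TercWT. Their part in these values was not tested.

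Between the groups labelled N1het the factors' differences lay from -0.65 to 0.69. Between N1het/TercG2 and N1het/TercWT, 6 of 10 were lower, against 64.9% of all genes, with a median of -0.14 where all genes had -0.24. The authors' deposited table called 0 of 10, where it called 0.432% of all genes, and 0 of 10 were past 2-fold, as were 21.5% of all genes. Relative to the median of all genes, 7 members were higher and 3 lower. Mef2c stood at 32.4 FPKM in N1het/TercG2 and 19.7 FPKM in N1het/TercWT (0.69), Tcf21 at 20.1 and 12.3 FPKM (0.67) and Tbx20 at 222 and 154 FPKM (0.53). Twist1 was lower, with 6.03 FPKM in N1het/TercG2 and 10.04 FPKM in N1het/TercWT (-0.65), as was Nfatc1 with 26.1 and 35.9 FPKM (-0.45). Snai2, Msx1, Gata4 and Gata6 differed by -0.36 to -0.13, and all 4 turned to between 0.01 and 0.24 under median scaling. Endothelial markers were higher in 11 of 11 genes and summed to 662 FPKM in N1het/TercG2 and 381 FPKM in N1het/TercWT. Their part was not tested.

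In N1het/TercG2 against N1WT/TercWT, 8 of 10 factors were lower, where 58.2% of all genes were lower. The median was -0.64, and -0.16 over all genes. The authors' deposited table called 0 of 10, where it called 0.526% of all genes. Gata6 was the 1 member past 2-fold, though not under median scaling, as were 24.7% of all genes in either direction and 17.2% that were lower, with 21.3 FPKM in N1het/TercG2 and 44.7 FPKM in N1WT/TercWT (difference -1.03). Twist1, with 6.03 FPKM in N1het/TercG2 and 12.6 FPKM in N1WT/TercWT, had a difference of -0.95. In plain FPKM both genes were 2.09-fold lower, so the pseudocount alone parts them. Snai2 differed by -0.85, Gata4 by -0.78, Msx1 by -0.72, Nfatc1 by -0.56, Gata5 by -0.49 and Tcf21 by -0.37. Mef2c and Tbx20 were higher, by 0.35 and 0.19. Cardiomyocyte markers were higher in 10 of 10 genes in N1het/TercG2, epicardial and mesothelial markers were lower in 9 of 10, smooth muscle markers in 7 of 8 and platelet markers in 6 of 6. Of these, 3 smooth muscle and 5 platelet markers fell in the authors' deposited table. Their part in the members' values was not tested.

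**Figure D3:**
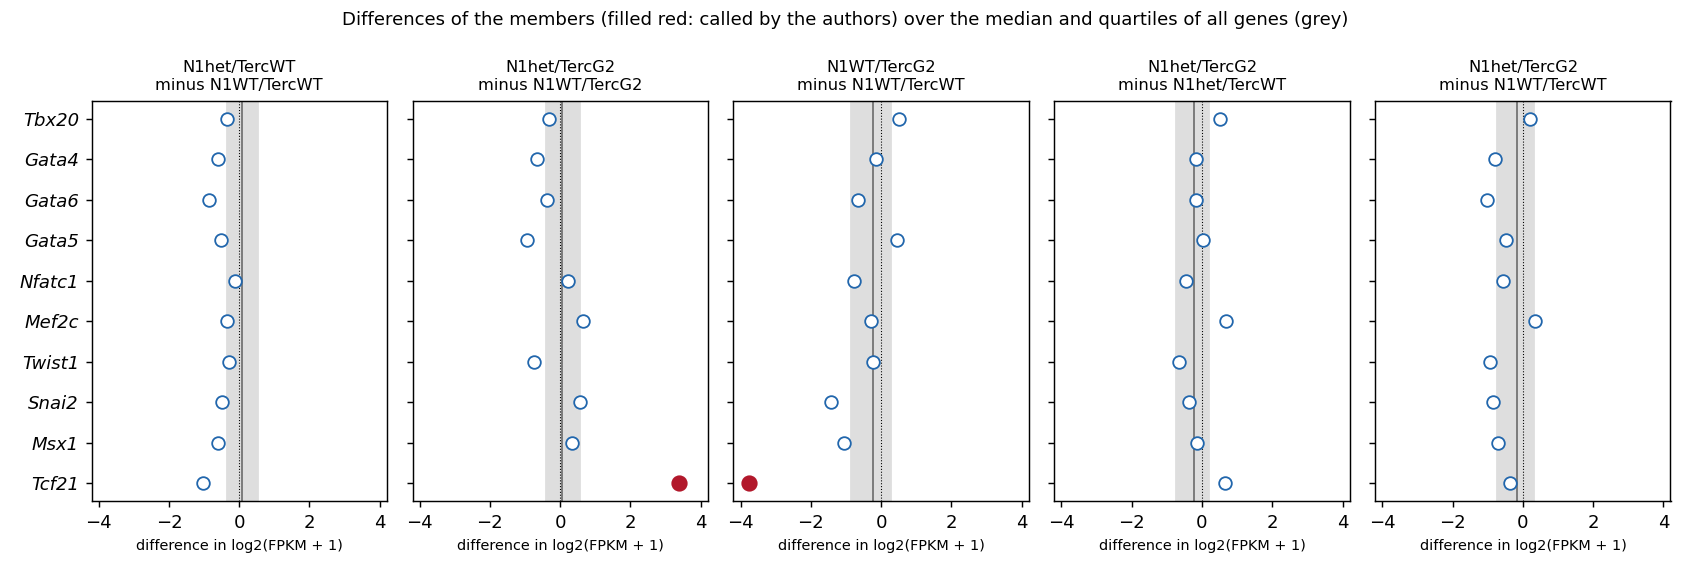
Difference in log2(FPKM + 1) of each factor in the 5 comparisons, with the median of all genes as a grey line, their quartiles as a grey band and genes called in the authors' deposited table as filled red points. With long telomeres all 10 points lie left of 0, and Tcf21 holds both calls, at 3.39 and -3.76. The comparisons share groups and are not independent of each other.

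The members were set beside the rest of their families. Of the 6 GATA genes, all were lower in N1het/TercWT than in N1WT/TercWT (median -0.74), where 43.6% of all genes were lower. All were also lower in N1het/TercG2 than in N1WT/TercG2 (median -0.52), where 42.6% of all genes were lower. Gata2 was nearly equal in the latter and turned higher under median scaling and without mitochondrial genes. The authors' deposited table called 0 of them in either comparison, where it called 0.415% and 0.476% of all genes. Gata2, a factor of endothelium and blood progenitors, stood at 29.8 FPKM in N1het/TercG2, 29.9 FPKM in N1WT/TercG2, 16.6 FPKM in N1het/TercWT and 36.0 FPKM in N1WT/TercWT. It was thus on the level of Gata6. Gata3, known from T cells and sympathetic neurons, stood at 2.72, 12.1, 16.1 and 23.0 FPKM in that order, while the T cell markers summed to 18.3, 138, 1076 and 115 FPKM, so both were lowest in N1het/TercG2 but highest in different groups. Gata1, the erythroid and megakaryocyte factor, stayed at or below 1.05 FPKM.

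Among the 7 Snail, Zeb and Twist genes, 7 of 7 were lower in N1WT/TercG2 than in N1WT/TercWT (median -1.13), where 61.1% of all genes were lower. Past 2-fold were 4 of them (Twist2, Snai2, Snai3 and Snai1), where 20.9% of all genes were past it and lower. Of these, Twist2 and Snai3 were low, at or below 2.20 and 1.72 FPKM in both groups. The count past 2-fold was not recomputed under median scaling. The authors' deposited table called 0 of the 7, where it called 0.686% of all genes. Under median scaling 6 of 7 were lower, and Twist1 turned higher. Snai1, the close relative of Snai2, stood at 5.96 FPKM in N1het/TercG2, 4.77 FPKM in N1WT/TercG2, 4.37 FPKM in N1het/TercWT and 11.6 FPKM in N1WT/TercWT. Snai3 stood at 6.30 FPKM in N1het/TercG2, 0.05 FPKM in N1WT/TercG2 and 1.72 FPKM in N1WT/TercWT. Twist2 was listed at 0 in N1WT/TercG2, at 1.12 FPKM in N1het/TercG2 and at 2.20 FPKM in N1WT/TercWT. Zeb1, a repressor of epithelial genes, was the most abundant of them at 60.3, 65.1, 53.2 and 80.6 FPKM in the order of groups used for Snai1, so that Snai2 and Twist1 were minor parts of this family's RNA. In the order of the same groups, the ratio of Snai2 to Twist1 was 1.93, 0.70, 1.52 and 1.73, and Twist1 exceeded Snai2 in N1WT/TercG2 alone. Msx2, the relative of Msx1, was low throughout, with 2.20 FPKM in N1het/TercG2, 0.07 FPKM in N1WT/TercG2, 0.97 FPKM in N1het/TercWT and 3.82 FPKM in N1WT/TercWT. Msx1 and Msx2 were thus both lowest in N1WT/TercG2 and highest in N1WT/TercWT.

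Nfatc1 was the highest NFAT gene in N1WT/TercWT alone. Nfat5 was the highest in both TercG2 groups, with 29.2 FPKM in N1het/TercG2 and 34.0 FPKM in N1WT/TercG2, and Nfatc3 in N1het/TercWT. Nfatc3, which is strong in thymocytes, stood at 24.7 FPKM in N1het/TercG2, 30.1 FPKM in N1WT/TercG2, 74.4 FPKM in N1het/TercWT and 28.0 FPKM in N1WT/TercWT, and the group with 74.4 FPKM was the one with the highest T cell markers. The part of T cells in the Nfatc3 values was not tested. Nfatc4 stood at 1.87, 2.67, 7.57 and 13.8 FPKM in the same order, and like Nfatc1 it was lower in both TercG2 groups than in both TercWT groups. Rcan1, the calcineurin inhibitor that NFAT induces, ran the other way at 80.7, 57.4, 43.0 and 38.6 FPKM. Mef2a, at 60.1 to 75.2 FPKM, and Mef2d, at 50.2 to 82.5 FPKM, were above Mef2c in each group, and Mef2b stayed at or under 2.28 FPKM. Tbx20 was far above the other 7 T-box genes measured. Tbx5, a factor of the atria and left ventricle, stood at 10.5, 5.10, 9.04 and 14.0 FPKM in N1het/TercG2, N1WT/TercG2, N1het/TercWT and N1WT/TercWT, and Tbx3, of the conduction system and valves, between 7.0 and 11.8 FPKM.

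**Figure D4:**
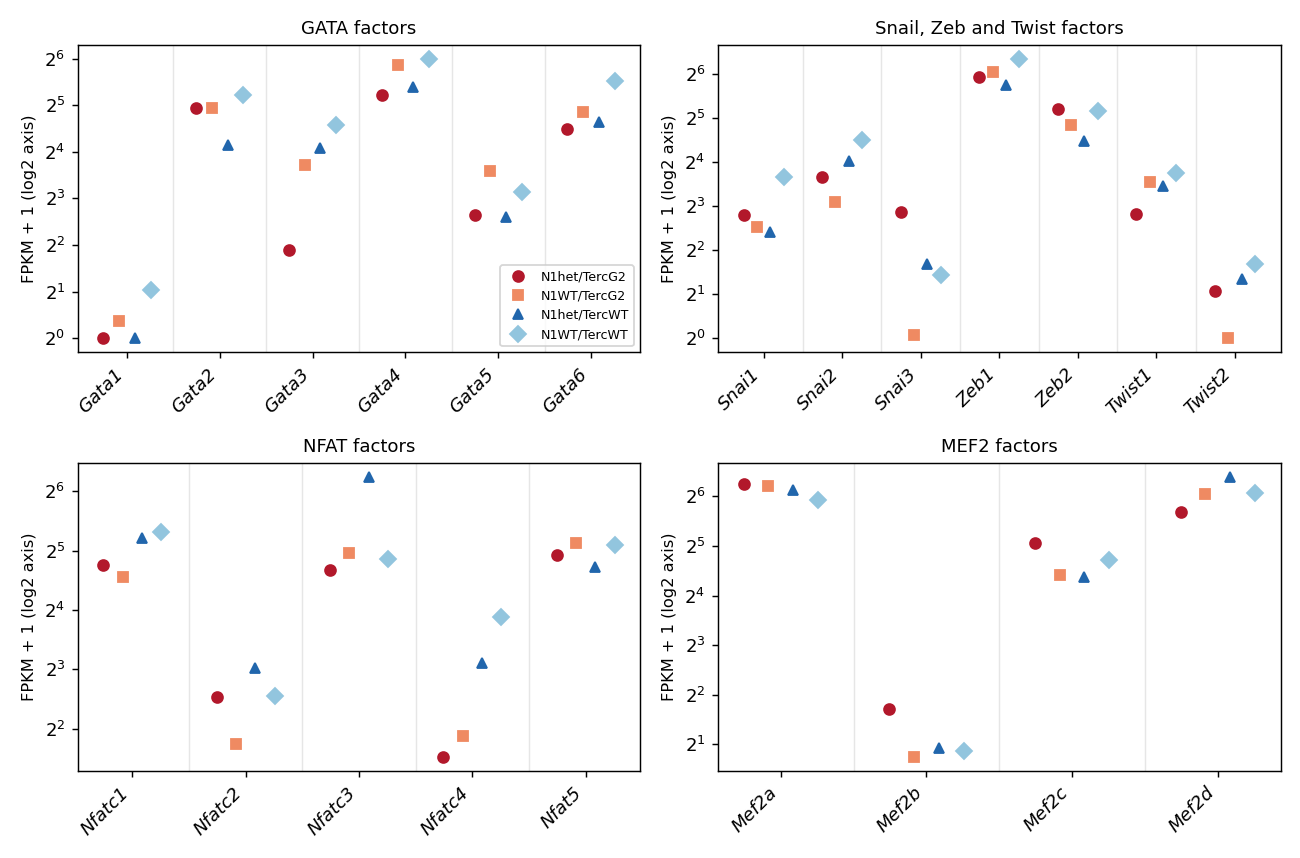
FPKM + 1 on a log2 axis for all GATA, Snail, Zeb and Twist, NFAT and MEF2 genes in the table, 1 point per group with no error bars. All 6 GATA genes are lower in N1het/TercWT than in N1WT/TercWT, and Nfatc3 reaches 74.4 FPKM in N1het/TercWT alone.

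Another 30 transcription factors of valve development, listed by hand, gave a setting for the members. In N1het/TercWT against N1WT/TercWT, 43.6% of all genes were lower. Past 2-fold were 18.4% in either direction and 7.53% that were lower, and 0.415% were called. Of the 30 factors, 23 were lower (median -0.36), 7 past 2-fold lower, 2 past 2-fold higher and 0 called in the authors' deposited table. The largest differences were those of Scx, a tendon and valve factor (4.91 FPKM in N1het/TercWT and 16.9 FPKM in N1WT/TercWT), the epicardial factor Wt1 (0.51 and 3.31 FPKM), Foxc1 (7.50 and 21.7 FPKM) and Msx2. Sox9, which drives the matrix of cartilage and valves, stood at 33.4 FPKM in N1het/TercWT and 61.1 FPKM in N1WT/TercWT. In N1het/TercG2 against N1WT/TercG2 19 of 30 were lower (median -0.18, 0 called), where 42.6% of all genes were lower and 0.476% called. Tbx2 stood at 0.60 FPKM in N1het/TercG2 and 4.70 FPKM in N1WT/TercG2, and the endothelial factor Sox17 at 13.2 and 3.73 FPKM. In N1WT/TercG2 against N1WT/TercWT 15 of 30 were lower, 7 of them past 2-fold, where 61.1% of all genes were lower and 20.9% past 2-fold lower. Of the 30, 12 were lower under median scaling and 18 without mitochondrial genes. Nkx2-5, a factor of the heart muscle lineage, stood at 1.32 FPKM in N1WT/TercG2 and 8.09 FPKM in N1WT/TercWT, Scx at 3.14 and 16.9 FPKM, and Klf4, which responds to flow in endothelium, at 130.4 and 52.3 FPKM.

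Between the groups labelled N1het, 23 of these 30 were higher in N1het/TercG2 than in N1het/TercWT (median 0.26), where 64.9% of all genes were lower (median -0.24). Lef1, a Wnt effector that is also strong in thymocytes, fell in the authors' deposited table, with 2.20 FPKM in N1het/TercG2 and 32.0 FPKM in N1het/TercWT, the group with the highest T cell markers. The part of T cells in the Lef1 values was not tested. Of the partners of basic helix-loop-helix factors, Tcf12 stood at 48.2 FPKM in N1het/TercG2, 62.5 FPKM in N1WT/TercG2, 94.6 FPKM in N1het/TercWT and 96.1 FPKM in N1WT/TercWT, and Tcf4 at 66.2, 58.9, 36.9 and 46.1 FPKM in that order. These partners of Tcf21 and Twist1 were thus present in every group. Hand2, a factor of cushions and ventricle, stood at 39.3, 47.0, 31.2 and 51.6 FPKM. Zfpm2, the cofactor of Gata4 known as FOG2, stayed between 3.57 and 6.46 FPKM.

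Of 16 genes reported as targets of the members, 9 were higher and 7 lower in N1het/TercWT than in N1WT/TercWT (7 higher under median scaling). Of all genes, 43.6% were lower there. In N1het/TercG2 against N1WT/TercG2, 8 were higher and 8 lower, where 53.5% of all genes were higher and 42.6% lower. The authors' deposited table called 0 of the 16 in either comparison, where it called 0.415% and 0.476% of all genes. Nppa and Nppb, natriuretic peptide genes that Gata4 activates in heart muscle, stood at 413 and 89.3 FPKM in N1het/TercG2, 46.8 and 21.5 FPKM in N1WT/TercG2, 43.4 and 29.7 FPKM in N1het/TercWT, and 352 and 5.55 FPKM in N1WT/TercWT. In the authors' deposited table Nppa rose in N1het/TercG2 against N1het/TercWT and Nppb rose in N1het/TercG2 against N1WT/TercWT. The Gata4 differences in these comparisons were -0.18 (0.21 under median scaling) and -0.78. Of the other atrial markers, Myl7, Myl4 and Sln were also higher in N1het/TercG2 than in N1het/TercWT, but Bmp10 was not (0 and 0.16 FPKM). Myl7, an atrial myosin light chain, stood at 129 FPKM in N1het/TercG2 and 13.01 FPKM in N1het/TercWT. The 5 atrial markers, Nppa among them, summed to 579 FPKM in N1het/TercG2 and 59.9 FPKM in N1het/TercWT. Their part was not tested. Postn, a matrix gene of the valve linked to Twist1, stood at 203 FPKM in N1het/TercG2, 214 FPKM in N1WT/TercG2, 188 FPKM in N1het/TercWT and 243 FPKM in N1WT/TercWT. Cdh11, also linked to Twist1, stood at 81.3, 50.6, 72.4 and 69.1 FPKM in that order. Cdh5, the endothelial cadherin that Snail factors can repress, stood at 121 and 88.3 FPKM in the 2 TercG2 groups (N1het and N1WT) and at 50.9 and 59.7 FPKM in the 2 TercWT groups (N1het and N1WT). The endothelial markers, Cdh5 among them, summed to 662, 555, 381 and 497 FPKM in that order. The part of endothelial cells in the Cdh5 values was not tested.

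The tissue held valve interstitial and endothelial markers together with heart muscle. Dcn stood at 2255 to 4698 FPKM and Pecam1 at 96.1 to 146 FPKM over the groups. Cardiomyocyte markers summed to 6886 FPKM in N1het/TercG2, 4582 FPKM in N1WT/TercG2, 5522 FPKM in N1het/TercWT and 3723 FPKM in N1WT/TercWT, and none of the 10 was at 0. Gata4, Gata6, Tbx20 and Mef2c are also expressed by heart muscle. N1WT/TercWT, with the lowest cardiomyocyte sum, had the highest Gata4 and Gata6, while Mef2c was highest in N1het/TercG2, with the highest cardiomyocyte sum. Smooth muscle markers summed to 493, 625, 280 and 1252 FPKM and atrial markers to 579, 99.4, 59.9 and 653 FPKM in the same order. Both of these sums were highest in N1WT/TercWT. Endothelial markers summed to 662, 555, 381 and 497 FPKM in the same order, and Nfatc1 stood at 26.1, 22.4, 35.9 and 38.8 FPKM. Snai2 is also expressed by melanocytes, whose 7 measured markers summed to 38.3, 107, 185 and 162 FPKM. The part of each cell type in the members' levels was not tested.

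**Figure D5:**
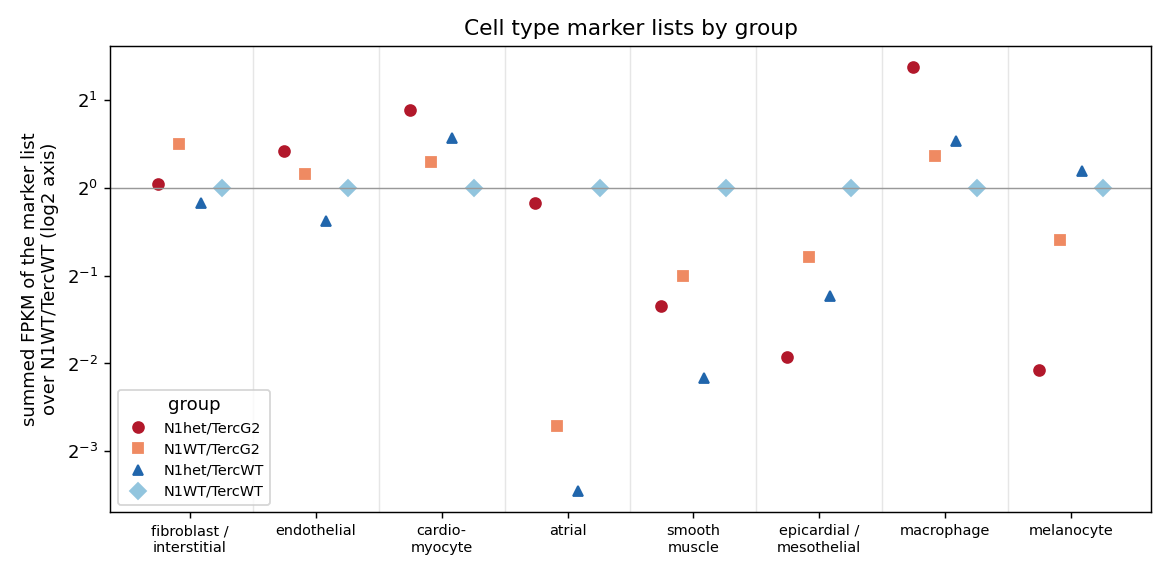
Summed FPKM of 8 cell type marker lists in each group, divided by that of N1WT/TercWT, on a log2 axis. The fibroblast and interstitial sum is highest in N1WT/TercG2, where it is mostly Dcn. The cardiomyocyte and macrophage lists are highest in N1het/TercG2, and the atrial and smooth muscle lists in N1WT/TercWT.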

How the data were processed

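Leaflets were treated with collagenase for 20 minutes at 37 °C, RNA was amplified by the NuGen Ovation V2 method, and paired reads of 100 bp were made, per the labels' protocols. The kit's strand handling is not given there, and 4 of the 10 members (Gata5, Gata6, Nfatc1 and Tcf21) overlap a gene on the opposite strand in GENCODE M21, whose reads may not be told apart. The submitters' processing notes list FastQC, TopHat, SAMtools and Picard, with mm9 as the build. Per the file headers, the authors deposited FPKM values, 1 for each gene in each group. No source used here gives how libraries were combined or FPKM computed. The authors' deposited table also holds 5 columns of 0 or 1, scored as calls of a difference. Columns 8 and 9 share a header, and each was assigned to the pair of groups whose smallest ratio over the called genes was largest (4.67 and 4.30, against at most 1.17 for any other pair).

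Differences are log2(FPKM + 1), computed with numpy 2.4.6 and pandas 2.3.3 in Python 3.11.15; figures used matplotlib 3.10.9. Limma was planned for values per library and could not be used. Members and the 24 other lists were chosen with earlier results of these data known. In each other list, genes were named by family membership or as up to 4 with the largest difference past 2-fold, and others were chosen after their values were seen. Hdac4, with several rows, was left out. Code was tested on simulated data. Alternatives were a pseudocount of 0.1, a mean of at least 1 FPKM, median scaling, and rescaling without the 23 mitochondrial genes. Upstream windows were in the RefSeq table for 6 of 10 members. GRCm38 differs from mm9, so its coordinates belong to the sequences alone.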

Additional observations from a re-analysis of the deposited data

How the results depend on the processing

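Under median scaling 6 of the members' 50 differences changed sign, and without mitochondrial genes 1 of 50 did, neither of them a call of Tcf21. Another pseudocount cannot turn a sign, and the minimum of 1 FPKM removed no member, so these say nothing of direction. With a pseudocount of 0.1 the Tcf21 differences grew to 4.18 for N1het/TercG2 against N1WT/TercG2 and to -4.56 for N1WT/TercG2 against N1WT/TercWT. In N1WT/TercG2 against N1WT/TercWT the members past 2-fold were 2 under median scaling. In N1het/TercG2 against N1het/TercWT that scaling moved the members' median to 0.23, the members below 0 to 2 and those past 2-fold to 2. The number past 2-fold in N1het/TercG2 against N1WT/TercG2 was 2 with a pseudocount of 0.1. In N1het/TercG2 against N1WT/TercWT it was 2 with that pseudocount, 0 under median scaling and 2 without mitochondrial genes. The cause of these moves was not tested. All 10 members stayed below 0 in N1het/TercWT against N1WT/TercWT under both rescalings. No paired analysis was possible because the table holds 1 pooled value per group, so no library could be left out either. Recomputing the count of members below 0 in these settings was added after seeing the data.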
